A study of Mus musculus with 6 samples.

Results

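Messenger RNAs of pacemaker, sodium and T-type calcium channel subunits were compared between hearts of wild-type mice and of mice lacking the microRNA gene miR-1-2, all at postnatal day 10. The genes were Hcn2, Hcn4, Scn4b, Cacna1g and Cacna1h, and every probe set whose platform gene symbol was one of them was taken. This gave 5 of the 45037 probe sets, and they covered 4 genes: 1 probe set each for Hcn2, Scn4b and Cacna1g, and 2 for Cacna1h. No probe set was named Hcn4 in the annotation used here, so Hcn4 was not analysed here. The groups were 3 wild-type and 3 knockout hearts, each measured on 1 Affymetrix array. The sources used here do not give strain, sex, litter or the kind of deletion. A separate gene, miR-1-1, makes the same mature miR-1, and the labels name no change to it in either group. The level of miR-1 was not analysed here, and so the genotypes were taken from the labels alone. Values are RMA expression values on the log2 scale, so a difference of 1 is a doubling. Each difference rests on 6 arrays, which sets its precision.

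HCN channels open on hyperpolarisation and carry the inward pacemaker current that drives spontaneous depolarisation in the sinoatrial node. The T-type calcium channels Cav3.1 (Cacna1g) and Cav3.2 (Cacna1h) open at negative voltages, add calcium current to nodal pacemaking and are also made by fetal and newborn ventricular muscle. The sodium channel beta-4 subunit (Scn4b) is a membrane protein that binds the pore-forming sodium channel and shapes its gating. Hcn2 and Hcn4 have been reported as targets of miR-1, and a microRNA can lower the messenger RNAs it pairs with. Only messenger RNA was read here, not protein. The comparison therefore asks whether these channel transcripts differed when miR-1-2 was missing.

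No channel probe set passed the test between genotypes. The fit was limma over all probe sets with Benjamini-Hochberg adjustment and a threshold of 0.05, and 0 of 5 channel probe sets passed, where 0.00666% of all probe sets did. With the same-numbered hearts of the groups compared as pairs (the replicate number as a block), 0 of 5 passed as well, against 0.0444% of all probe sets. At an unadjusted p under 0.05 the count was 0 of 5 without the block (3.94% of all probe sets) and 1 of 5, Cacna1g, with it (6.49%). Knockout and wild-type values overlapped for all 5, while 8.7% of all probe sets had groups that did not overlap. On average 4 probe sets were lower in knockout and 1, that of Cacna1g, was higher, and the sign of the dimmer Cacna1h probe set turned with each array centred on its median.

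**Figure D1:**
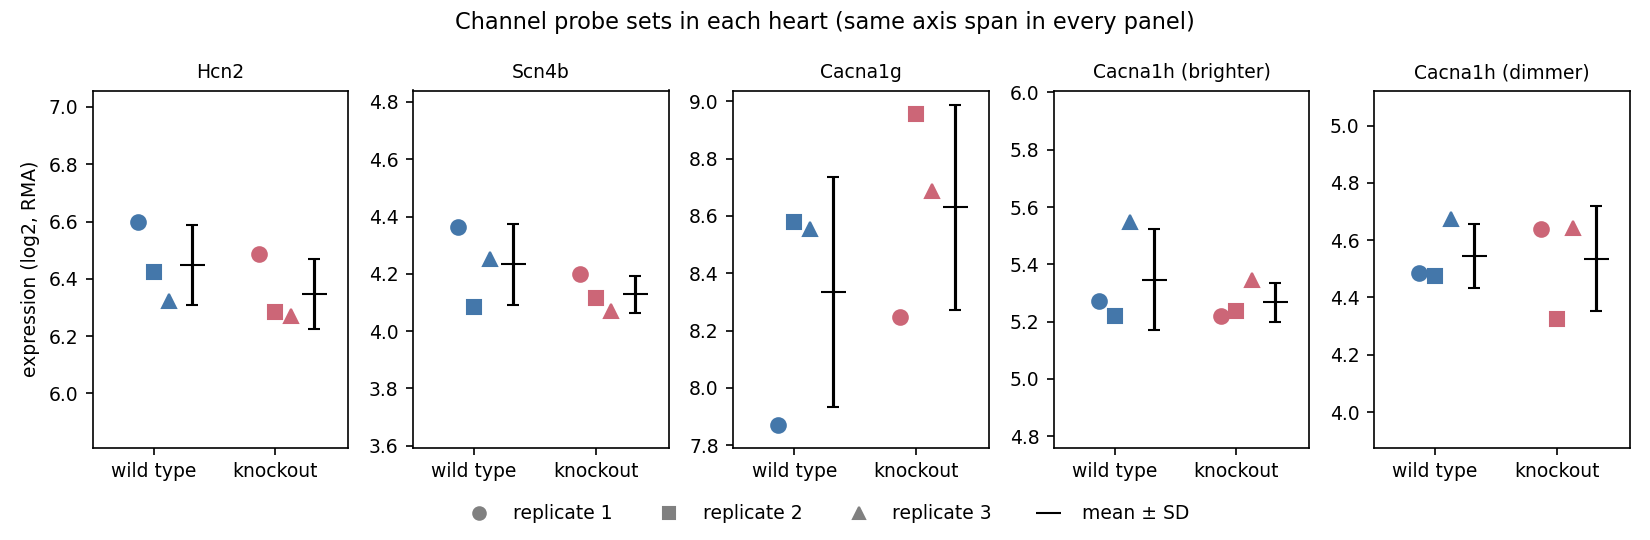
Expression (log2, RMA) of the 5 channel probe sets in each of 3 wild-type (blue) and 3 knockout (red) hearts. Marker shape gives the replicate number, black bars give mean ± SD, and all panels span the same number of log2 units. In every panel the values of the groups overlap, and replicate 1 is the lowest heart of its group for Cacna1g and the highest for Hcn2 and Scn4b.

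Hcn2 encodes an HCN channel subunit found in the node and, at lower density, in working heart muscle. Its probe set stood at 6.60, 6.42 and 6.32 in wild-type replicates 1, 2 and 3, and at 6.49, 6.28 and 6.27 in knockout replicates 1, 2 and 3. Replicate 1 was the highest heart in each group, and knockout replicate 1 lay above wild-type replicates 2 and 3. Wild-type hearts averaged 6.45 ± 0.14 (SD, n = 3) and knockout hearts 6.35 ± 0.12. The difference was -0.10 ± 0.097 (SE; 95% interval -0.32 to 0.12; limma adjusted p = 1.00).

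On the linear scale the Hcn2 interval ran from 0.801-fold to 1.09-fold, so a rise above 1.09-fold in knockout lay outside it. The knockout value was lower in 3 of 3 same-numbered pairs, by 0.11, 0.14 and 0.054, and 14.1% of all probe sets were lower in all 3 pairs. With the pairs as a block the adjusted p was 0.874. An exact permutation test over the 6 arrays, two-sided, gave p = 0.5, and the smallest p that 3 arrays against 3 allow is 0.1. Without wild-type replicate 1 the difference was -0.026, without wild-type replicate 3 it was -0.16, without knockout replicate 1 -0.17 and without knockout replicate 3 -0.062. The direction stayed downward in each of these.

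Scn4b was measured by 1 probe set near the dim end of the arrays, where 14.7% of probe sets had a lower mean and RMA compresses differences. It stood at 4.36, 4.08 and 4.25 in wild-type replicates 1, 2 and 3, and at 4.20, 4.12 and 4.07 in knockout replicates 1, 2 and 3. All knockout values but that of replicate 3 lay within the wild-type range. The difference was -0.10 ± 0.089 (SE; 95% interval -0.31 to 0.096; limma adjusted p = 1.00, exact permutation p = 0.3). It was lower in knockout in 2 of 3 pairs, and no difference was detected. Leaving out wild-type replicate 1 gave -0.040 and leaving out wild-type replicate 2 gave -0.18.

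Cacna1g, the gene of Cav3.1, varied most among the 5 probe sets. It stood at 7.87, 8.58 and 8.55 in wild-type replicates 1, 2 and 3, and at 8.25, 8.96 and 8.69 in knockout replicates 1, 2 and 3. Replicate 1 was the low heart of both groups, and knockout replicate 1 lay below wild-type replicates 2 and 3, so the groups overlapped. Wild-type hearts averaged 8.33 ± 0.40 (SD, n = 3) and knockout hearts 8.63 ± 0.36.

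The Cacna1g difference was 0.30 ± 0.22 (SE), or 1.23-fold with a 95% interval from 0.875-fold to 1.72-fold (limma adjusted p = 1.00, exact permutation p = 0.4). Knockout exceeded wild type in 3 of 3 same-numbered pairs, by 0.37, 0.38 and 0.13, and 12.9% of all probe sets were higher in all 3 pairs. With the pairs as a block the standard error was 0.082 and the 95% interval 0.11 to 0.48, with an unadjusted p of 0.00526 in limma and an adjusted p of 0.543. The value turned on single hearts: it was 0.064 without wild-type replicate 1, 0.49 without knockout replicate 1 and 0.13 without knockout replicate 2. With the replicate 1 hearts of both groups left out it was 0.26 (limma adjusted p = 0.439).

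**Figure D2:**
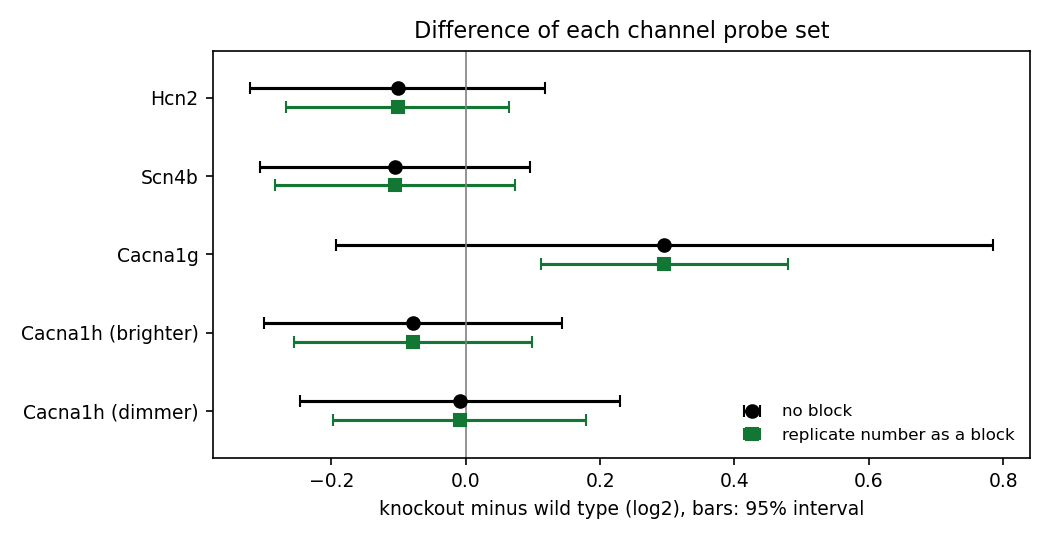
Knockout minus wild type (log2) for each channel probe set, with 95% intervals from limma over all probe sets, without (black circles) and with (green squares) the replicate number as a block. The Cacna1g interval narrows from -0.19 to 0.78 without the block to 0.11 to 0.48 with it, and the other intervals include 0 in both fits.

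Cacna1h, the gene of Cav3.2, was measured by 2 probe sets, both dim: 34.8% and 20.8% of all probe sets had a lower mean. The brighter one is of a type that can match several transcripts of a gene. It stood at 5.27, 5.22 and 5.55 in wild-type replicates 1, 2 and 3, and at 5.22, 5.24 and 5.35 in knockout replicates 1, 2 and 3. Wild-type replicate 3 was the highest heart, and the other values lay close together. The difference was -0.079 ± 0.098 (SE; 95% interval -0.30 to 0.14; limma adjusted p = 1.00), and without wild-type replicate 3 it was 0.022.

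The dimmer Cacna1h probe set stood at 4.48, 4.48 and 4.67 in wild-type replicates 1, 2 and 3, and at 4.64, 4.32 and 4.64 in knockout replicates 1, 2 and 3. Its lowest heart was knockout replicate 2 and its highest wild-type replicate 3. The difference was -0.0091 ± 0.11 (SE; 95% interval -0.25 to 0.23; limma adjusted p = 1.00, exact permutation p = 1.0). Its sign was upward without wild-type replicate 3 (0.055), without knockout replicate 2 (0.096) and with each array centred on its median (0.012). No direction was assigned to Cacna1h.

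The channels differed in how far they varied between hearts of 1 genotype. The SD within groups, pooled over both, was 0.38 for Cacna1g, and 99.4% of all probe sets had a smaller one. It was 0.13 for Hcn2, 0.11 for Scn4b, and 0.13 and 0.15 for the brighter and dimmer Cacna1h probe sets, beside a median of 0.11 over all probe sets.

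Much of the Cacna1g spread lay between replicate 1 and the other hearts. Replicate 1 was 0.69 below the mean of replicates 2 and 3 in wild type and 0.58 below it in knockout. Averaged over the genotypes this was 1.55-fold, and 99.7% of all probe sets had a smaller shift. Hcn2 shifted the other way, by 0.23 in wild type and 0.21 in knockout, and Scn4b by 0.20 and 0.11. The brighter Cacna1h probe set was 0.11 and 0.072 lower in replicate 1, and the dimmer one went down in wild type and up in knockout. Averaged over the genotypes, the shift of replicate 1 was larger in size than the difference between genotypes for all 5 probe sets.

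**Figure D3:**
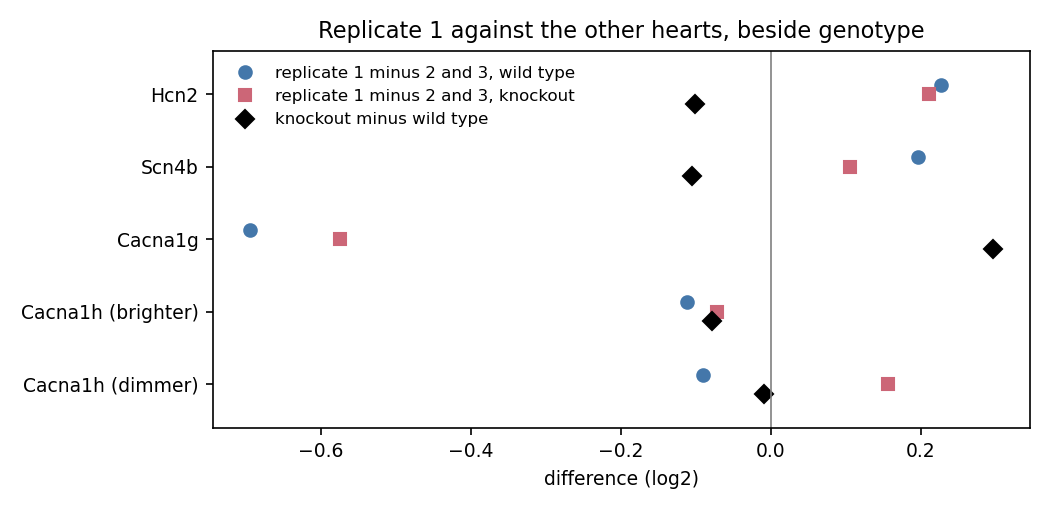
For each channel probe set, replicate 1 minus the mean of replicates 2 and 3 in wild type (blue circles) and knockout (red squares), beside knockout minus wild type (black diamonds), all in log2 units. Cacna1g lies at -0.69 and -0.58 for replicate 1 against 0.30 for genotype.

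Other features of the hearts followed the same split. Ucp1, the uncoupling protein of brown fat, stood at 9.45 in wild-type replicate 1 and 10.39 in knockout replicate 1, and between 5.22 and 6.68 elsewhere. The mean of 8 measured brown fat markers was 8.47 and 8.72 in the first replicates, against 7.46 to 7.59 in the others. The gap lay mainly in Ucp1, Adipoq and Cidea, which were 4.09, 3.08 and 0.85 higher in replicate 1 of wild type. Fabp4 (0.025), Elovl3 (0.0053), Dio2 (-0.072) and Lep (-0.18) differed little or went the other way there. In knockout, replicate 1 was higher for these genes too, by 0.072, 0.32, 0.19 and 0.28. Ucp1, Adipoq and Cidea were 4.41, 3.54 and 0.57 higher in it. The first principal component over all genes held 50.1% of the variance. On it the replicate 1 hearts stood apart, at 13.4 in wild type and 18.0 in knockout. The other hearts were also split on it by genotype. Wild-type replicates 2 and 3 stood at -2.25 and -1.89, and knockout replicates 2 and 3 at -16.1 and -11.1. The part of these features in the Cacna1g and Hcn2 values was not tested.

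Sex was not balanced. Xist, made from the inactive X chromosome of females, was between 11.91 and 12.19 in the wild-type hearts and knockout replicate 2, and at 7.55 and 7.57 in knockout replicates 1 and 3. Cacna1g was highest in knockout replicate 2 (8.96). With the Xist level as a covariate the Cacna1g difference was 0.62 (limma adjusted p = 0.674), and that of Hcn2 was -0.17 (adjusted p = 0.731). Knockout replicate 2 is the only knockout heart with high Xist, so the differences in that fit rest mainly on it against wild type. The dimmer Cacna1h probe set was at -0.21 in that fit (adjusted p = 0.674), its lowest value in any alternative run. Without knockout replicate 2, Xist is low in every knockout heart and high in every wild-type heart that remains, so genotype and sex cannot be told apart in that fit.

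Markers of cell types that make these channels were read beside them. Of 10 ventricular muscle genes, all but Myh7 stood at 11.4 or above in every heart. Myh7, the slow myosin of fetal ventricle, stood at 8.18, 9.53 and 9.47 in wild-type replicates 1, 2 and 3, and at 9.41, 10.91 and 11.59 in knockout replicates 1, 2 and 3. It differed by 1.58 ± 0.54 (SE; limma adjusted p = 1.00, and 0.0261 with the block). All 8 atrial muscle markers were lower on average in knockout, with a median difference of -0.42, and 0 passed. Their mean ranged from 9.68 to 10.22 in wild type and from 8.88 in knockout replicate 3 to 10.12 in knockout replicate 2. Sinoatrial and atrioventricular node markers had a mean over 9 genes of 6.47 to 6.60 in wild type and 6.40 to 6.61 in knockout. Of these node markers 7 were lower and 2 higher on average in knockout, with a median difference of -0.097, and 0 passed. Markers of ventricular conduction fibres averaged 7.51 to 7.57 in wild type and 7.55 to 7.56 in knockout. Single fibre markers went both ways: of 7 measured, 3 were higher and 4 lower on average in knockout. Their differences ran from -0.25 (Ntm) to 0.36 (Irx3), and 0 passed.

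The remaining marker lists covered cells that can carry T-type or sodium channels, and others found in a heart sample. Smooth muscle and pericyte markers averaged 9.70 to 9.80 in wild type and 9.83 to 9.94 in knockout, and 7 of 9 were higher in knockout. Neuron and Schwann cell markers averaged 5.61 to 5.86 and 5.58 to 5.78, and skeletal muscle markers 6.44 to 6.55 and 6.36 to 6.44. Fibroblast markers averaged 11.43 to 11.60 and 11.42 to 11.67, and endothelial markers 8.84 to 9.06 and 8.82 to 9.15. Myeloid markers averaged 7.56 to 7.80 in wild type and 7.33 to 7.50 in knockout, and 7 of 7 were lower there. No gene of the 11 marker lists passed without the block, where 0% of all genes did. With it 1 did, Myh7, where 0.0715% of all genes did. The Myh7 values of the groups overlapped (exact permutation p = 0.3). The part of these cell types in the channel values was not tested, and in whole tissue fewer cells of a type and less RNA per cell cannot be told apart.

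Related genes were read from 4 lists, with 1 probe set per gene (the brightest) and limma over 18193 genes. Of 60 genes measured, 33 were higher and 27 lower in knockout, with a median difference of 0.016, beside 4.8e-04 over all genes. None of the 60 passed without the block (0% of all genes did) or with it (0.0715%). At an unadjusted p under 0.05, 5 were higher and 0 lower, where 4.1% of all genes had such a p. Groups did not overlap for 6 of the 60, while 8.86% of all genes had groups apart.

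The HCN list held the other HCN channels, their accessory proteins, the adenylyl cyclases whose cAMP binds them, and Rest, a repressor of fetal ion channel genes. Of 12 measured genes 7 were higher and 5 lower, with a median of 0.12. With single hearts left out that median ran from 0.074 without knockout replicate 2 to 0.23 without knockout replicate 1. With the mean of all probe sets of a gene in place of the brightest it was 0.046. Hcn3, another HCN channel gene, differed by -0.044 ± 0.11 (SE), with knockout replicate 1 at 7.04 and the other hearts between 6.63 and 6.88. Rest stood at 7.50, 7.66 and 7.72 in wild-type replicates 1, 2 and 3, and at 7.59, 7.998 and 7.88 in knockout replicates 1, 2 and 3. Its difference was 0.20 ± 0.11 (limma adjusted p = 1.00), and its other probe sets lay between -0.056 and 0.034. Adcy5, a cyclase of heart muscle, differed by 0.37 ± 0.12 with the groups apart (limma adjusted p = 1.00, and 0.175 with the block), and its 3 other probe sets by -0.13 to 0.0084. Bves, a cAMP-binding membrane protein of the Popeye family, differed by 0.16.

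The sodium channel list held other alpha and beta subunits and proteins that anchor or modulate them. Of 21 measured genes 12 were higher and 9 lower, with a median of 0.016 that ran from -0.016 without knockout replicate 2 to 0.029 without wild-type replicate 1. Ank3, which encodes the ankyrin-G that anchors sodium channels, stood at 8.33, 8.28 and 8.40 in wild-type replicates 1, 2 and 3, and at 8.56, 8.75 and 8.57 in knockout replicates 1, 2 and 3. Its groups did not overlap and the difference was 0.29 ± 0.079 (SE; limma adjusted p = 1.00, and 0.452 with the block). Its 6 probe sets differed by -0.0040 to 0.29. Scn10a differed by 0.19 and Fgf13, a cytosolic partner of sodium channels, by 0.15.

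Other voltage-gated calcium channel subunits went both ways, with 5 higher and 6 lower of 11 and a median of -0.041. With single hearts left out it ran from -0.042 without wild-type replicate 3 to 0.015 without wild-type replicate 1. Cacna1c, the L-type pore of ventricular muscle, stood at 8.71, 9.11 and 9.04 in wild-type replicates 1, 2 and 3, and at 8.93, 9.38 and 9.50 in knockout replicates 1, 2 and 3. The difference was 0.31 ± 0.16 (SE; limma adjusted p = 1.00, and 0.348 with the block), and its second probe set differed by 0.41. As for Cacna1g, replicate 1 was the lowest heart of each group. The auxiliary subunit genes Cacna2d3 and Cacnb2 differed by 0.21 and 0.18.

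Of 16 measured transcription factors and signals of the node and conduction system, 9 were higher and 7 lower, with a median of 0.018. With single hearts left out it ran from -0.0085 without knockout replicate 2 to 0.13 without knockout replicate 1. Irx3, a homeobox factor of the ventricular conduction fibres, differed by 0.36 ± 0.11 (SE), Gata6 by 0.39 ± 0.14 and the homeodomain protein gene Hopx by 0.18 ± 0.063, each with the groups apart and a limma adjusted p of 1.00. Of the other Gata6 probe sets, the brighter differed by 0.35 and the dimmer by -0.024. Hey2, a transcriptional repressor made in ventricular muscle, is named here after its values were seen because it had the largest difference of the 60 genes. It stood at 5.51, 6.16 and 6.05 in wild-type replicates 1, 2 and 3, and at 5.72, 6.89 and 6.99 in knockout replicates 1, 2 and 3, so the groups overlapped. It differed by 0.63 ± 0.32 (SE; limma adjusted p = 1.00, and 0.183 with the block). Tbx3, the T-box factor that keeps nodal cells from becoming working muscle, differed by 0.031 ± 0.082, and its 4 dimmer probe sets had differences of -0.040 to -0.22. Shox2, a sinoatrial homeobox factor, stood at 5.60, 5.06 and 5.21 in wild-type replicates 1, 2 and 3 and at 4.79, 5.76 and 4.88 in knockout replicates 1, 2 and 3, and differed by -0.15.

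**Figure D4:**
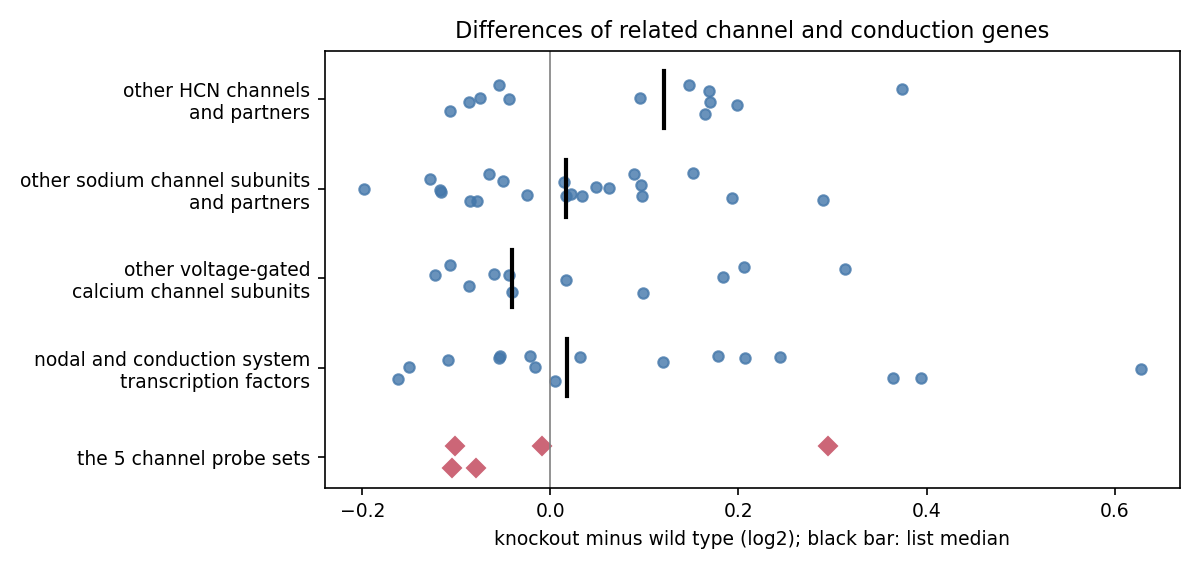
Knockout minus wild type (log2) of the measured genes in 4 lists of related genes (blue points, black bar at the list median) and of the 5 channel probe sets (red diamonds). Points are spread vertically only to separate them. The list medians lie between -0.041 and 0.12, and no gene shown passed the test.

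Genes whose profile over the 6 arrays was most like each channel were found by Pearson's r among genes of at least median brightness and an SD of at least 0.1. For Cacna1g these were Plcg1 (r = 0.998), Prpsap1 (0.997) and Akt2 (0.997). In all, 724 of 4862 candidate genes had an r above 0.9 with Cacna1g, and the arrays share the replicate 1 split described above. For Hcn2, 72 genes did, and the closest were Slc25a26 (0.985), Cd3e (0.980) and Klf9 (0.979). For Scn4b, 55 did, led by Tmem209 (0.989), Ank1 (0.988) and Flnc (0.972). For the brighter Cacna1h probe set, 6 did, led by Gpat3 (0.944), Disp1 (0.930) and Hhex (0.930). With 6 arrays and so many candidates, these values are descriptions only.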

How the data were processed

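Total RNA of heart tissue was labelled with biotin and hybridised to Affymetrix arrays of 45101 probe sets. The table the authors deposited holds log2 values from RMA (affy package), per the series' design text, and GCOS 1.4 is named in the submitters' processing notes. RMA corrects background, normalizes quantiles and summarises probes. Values lay between 2.64 and 14.6, and correlations between arrays between 0.991 and 0.997.

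Samples were grouped by title. The 64 control probe sets were left out. The platform annotation gave 34945 probe sets 1 gene, 932 several and 9160 none, and old symbols were replaced through RefSeq gene identifiers (GRCm38.p6). Tests used limma 3.58.1 in R 4.3.3. Only the fit without the block was tried on simulated data. Their noise was independent between arrays, with no replicate 1 shift and no sex imbalance. Of the 5 channel probe sets, 2 lie at or above the median brightness. The channels and lists were chosen with earlier results of these data known. Named list genes are the 3 with the smallest p in each list, plus Hcn3, Cacna1c, Rest, Tbx3 and Shox2. Some genes of the rule are not reported here. p-values measure the spread between these arrays, taken as separate mice per the design text. Alternatives were the replicate block, left-out arrays, further normalization, other variance models, array weights, filters on probe sets, the mean over probe sets and an Xist covariate.

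The titles give both groups replicate numbers 1 to 3. Across genes, same-numbered arrays deviated from their groups with correlations of 0.54, 0.18 and 0.13. All are above the 0.1 set for treating numbers as pairs. Crossed pairs of replicates 2 and 3 correlated higher, at 0.35 and 0.30. The titles state no pairing, so that of replicates 2 and 3 rests on the shared numbers alone.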

Additional observations from a re-analysis of the deposited data

How the results depend on the processing

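The count of channel probe sets that passed was 0 in all 16 alternatives, and 0 of the 4 channel genes passed in 17. Without single arrays, both counts ran from 0 to 0, and so did that of the related genes. Hcn2 (16 alternatives) and Scn4b (15) kept a negative difference, and Cacna1g (16) a positive one, from 0.064 to 0.62. The 0.62 came from the Xist covariate fit, which rests mainly on knockout replicate 2. The brighter Cacna1h probe set reversed in 1 of 14 (0.022 without wild-type replicate 3; without single arrays it ran from -0.14 to 0.022). The dimmer one reversed in 5 of 15, from 0.012 with arrays centred on their median and 0.014 with a further quantile normalization to 0.038 with array weights, 0.055 without wild-type replicate 3 and 0.096 without knockout replicate 2. Without single arrays it ran from -0.062 to 0.096, and with the Xist covariate it was -0.21. Of the 60 related genes, 4 passed with array weights (Adcy5, Cacna1c, Hey2 and Irx3, all higher, where 2.29% of all genes passed) and 1 with replicates 2 and 3 only and the replicate block (Hey2, where 0.0605% of all genes passed). The weights fitted knockout replicate 3 at 4.74 and knockout replicate 1 at 0.22. The replicate block changed no call for a channel. Over all probe sets 3 passed without the block, 20 with it and 24 with array weights, 15 without knockout replicate 2, 6 without knockout replicate 1 or with trend and robust variance, 1 without each wild-type array in turn, and 0 with the Xist covariate or either probe set filter. Over all genes 0 passed, 13 with the block, 416 with array weights, 11 with the block on replicates 2 and 3, 1 on these without it, 4 without knockout replicate 1, 2 without knockout replicate 2 and 3 with the mean of probe sets. With the Xist covariate the median of the node and conduction factors was 0.24. The cause of these changes was not tested.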
